A study of Mus musculus with 12 samples.

Results

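The 5 Hedgehog genes below were described in sorted mouse skin fibroblasts: the receptor gene Ptch1, the signal transducer gene Smo, the decoy receptor gene Hhip and the transcription factor genes Gli1 and Gli2. They were chosen by name, as every probe set that the platform annotation pairs with exactly 1 symbol, that of one of these genes. This gave 13 probe sets of 45037 that are not controls, and 5 genes of 18193. The probe set that was brightest on average over the 12 arrays stands for the gene. Gli1 had 1 probe set, Gli2 had 2, Ptch1 and Smo had 3 each and Hhip had 4.

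RNA was measured on Affymetrix arrays, 1 array per sample, in 12 samples of 3 groups with 4 arrays each. Pap arrays hold fibroblasts of papilloma-associated (tumour-associated) back skin of InvEE mice, InvEE arrays those of inflamed InvEE back skin, and WT arrays those of normal skin of wild-type mice. All mice were 7-week-old males with a PDGFRα-H2B-eGFP allele, a nuclear reporter of PDGF receptor alpha expression, and the cells sorted were the green fluorescent ones. In InvEE mice, as known from earlier work, the involucrin promoter drives an activated MEK1 kinase in differentiating epidermal cells, not in fibroblasts. The labels do not say whether the replicates of a group, or the inflamed and papilloma-associated skin, came from separate animals. The spread behind every p-value is therefore that between samples, and it may be technical.

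In Hedgehog signalling, the secreted ligands Shh, Ihh and Dhh bind Ptch1, which otherwise holds Smo inactive. Active Smo acts at the primary cilium, where it lets Gli2 and Gli3 turn on target genes. Gli1, Ptch1 and Hhip are themselves targets, so their RNA is widely read as a measure of pathway output, and Ptch1 and Hhip limit the signal by binding the ligand. In skin, Shh made by the growing hair follicle signals to the follicle epithelium and to the neighbouring mesenchyme, the dermal papilla and the dermal sheath.

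Some arrays stood apart before any comparison. The mean correlation with the other arrays of its own group, across genes, was lowest in Pap array 4 (0.895), InvEE array 3 (0.963) and WT array 4 (0.929). The fibroblast label fitted the arrays: of 10 fibroblast markers none was dim, where dim means that a group averaged below 6.162, so that it ranked with the dimmest 40% of probe sets. Their mean log2 value lay between 13.15 and 13.29 on Pap arrays, 12.90 and 13.07 on InvEE arrays and 13.03 and 13.13 on WT arrays. Pdgfra, the gene of the sort reporter, averaged 10.87 on Pap, 10.62 on InvEE and 9.94 on WT arrays (9.26 on WT array 4). It was the 1 of 10 called higher in Pap against WT (adjusted p = 0.0349, limma), where 4.85% of all genes were. In Pap against InvEE 2 were called higher, Pdgfrb (adjusted p = 0.0211) and Dpt (adjusted p = 0.0437), where 3.67% of all genes were. None was called in InvEE against WT. The poly-A spike controls, RNAs added to each sample, set the InvEE arrays apart from the others, while Pap and WT arrays overlapped. Their mean log2 value over 12 probe sets lay between 9.87 and 12.37 on Pap arrays, 7.79 and 8.61 on InvEE arrays and 9.28 and 12.15 on WT arrays. The excess of the 3′ over the 5′ Gapdh control probe set, which grows as RNA degrades, lay between 2.17 and 3.79 on Pap, 1.64 and 3.29 on InvEE and 1.62 and 2.33 on WT arrays.

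The RNA of Gli1, Gli2, Ptch1 and Hhip was lower in papilloma-associated than in inflamed skin fibroblasts, by 3.17 to 12.7 times, while Smo was not. All 4 genes also stood higher in inflamed than in normal skin on every array, but none of these differences passed the test over all genes. Between papilloma-associated and normal skin, Smo alone passed, and it was higher in papilloma-associated skin. In RNA of pooled sorted cells, fewer cells that express a gene and less RNA of it per cell cannot be told apart.

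**Figure D1:**
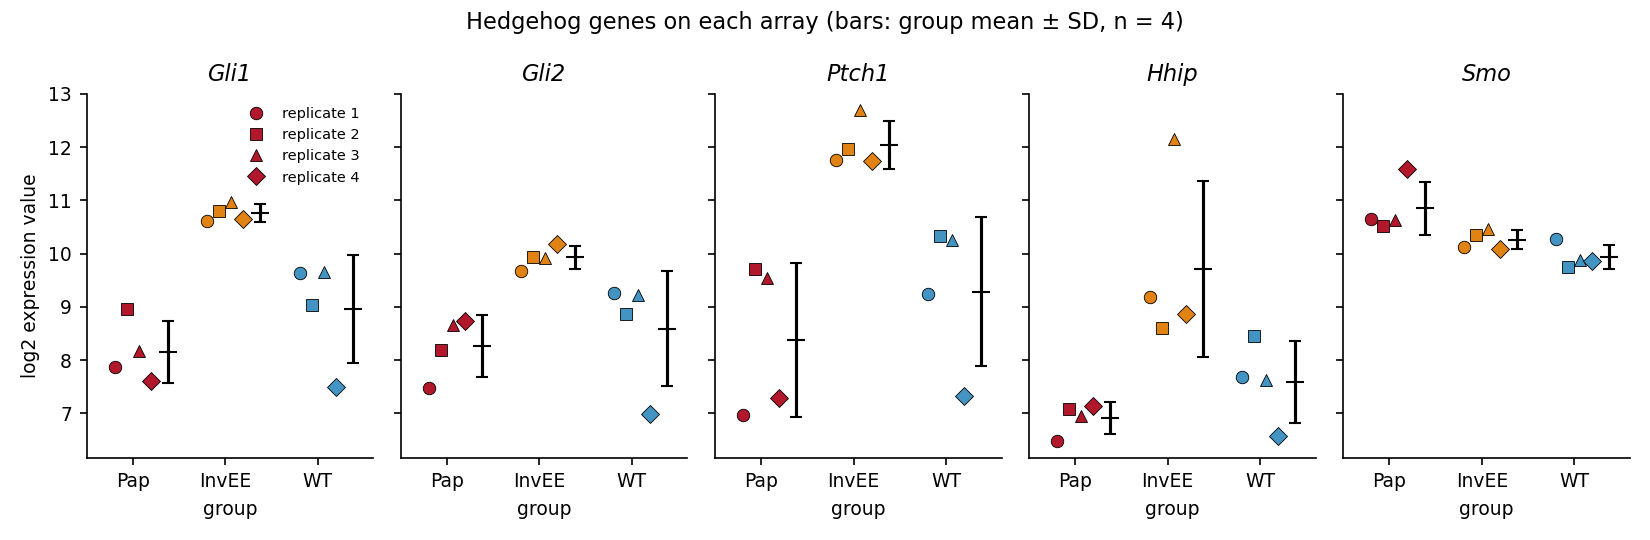
Log2 expression values of the 5 genes (y axis) on each of the 12 arrays, by group (x axis); each symbol is 1 array, its shape gives the replicate number, and the bars give the group mean ± SD (n = 4). InvEE arrays lie above all other arrays in Gli1, Gli2, Ptch1 and Hhip, and WT array 4 (diamond) is the lowest WT array in these 4 genes.

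Gli1, on mouse chromosome 10 (chr10:127329882-127341579, GRCm38.p6, RefSeq), encodes a transcriptional activator whose own gene is a Hedgehog target. Its log2 values were 7.87, 8.95, 8.17 and 7.60 on Pap arrays 1 to 4, against 10.61, 10.81, 10.97 and 10.66 on InvEE arrays and 9.64, 9.04, 9.65 and 7.49 on WT arrays. The InvEE arrays were close together and above every other array, and the Pap and WT arrays overlapped because WT array 4 was the lowest of all 12. In Pap against InvEE the log2 difference was -2.61 ± 0.43 (SE, n = 4 arrays per group), a level 6.12 times lower (adjusted p = 0.00404, limma).

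Ptch1 (chr13:63508328-63573460) encodes the receptor that binds the ligand and restrains Smo. Its log2 values were 6.96, 9.71, 9.53 and 7.29 on Pap arrays, against 11.76, 11.96, 12.70 and 11.73 on InvEE arrays and 9.25, 10.32, 10.25 and 7.32 on WT arrays. Pap arrays 1 and 4 and WT array 4 were low, Pap arrays 2 and 3 lay among the other WT arrays, and the InvEE arrays were again separate. The difference in Pap against InvEE was -3.66 ± 0.74, or 12.7 times lower (adjusted p = 0.0123, limma), and -2.57 with the mean of its 3 probe sets (adjusted p = 0.000915).

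Hhip (chr8:79965850-80058060) encodes a membrane protein that binds Hedgehog ligands and keeps them from Ptch1. Its log2 values were 6.47, 7.08, 6.95 and 7.13 on Pap arrays, against 9.18, 8.61, 12.16 and 8.87 on InvEE arrays and 7.69, 8.44, 7.62 and 6.57 on WT arrays. InvEE array 3 was far above the other InvEE arrays, which still lay above every Pap and WT array. The difference in Pap against InvEE was -2.80 ± 0.66 (adjusted p = 0.0266, limma). It was -1.98 without InvEE array 3 (adjusted p = 0.00899), and was no longer called without Pap array 1 (-2.65, adjusted p = 0.0657) or InvEE array 1 (-2.97, adjusted p = 0.0554).

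Gli2 (chr1:118834061-119054405) encodes the main activator that is switched on by Smo. Its log2 values were 7.47, 8.18, 8.66 and 8.74 on Pap arrays, against 9.67, 9.93, 9.92 and 10.18 on InvEE arrays and 9.26, 8.87, 9.23 and 6.99 on WT arrays. Apart from array 4, which was the lowest of all 12, the WT arrays lay between the InvEE and the Pap arrays. The difference in Pap against InvEE was -1.66 ± 0.45, or 3.17 times lower, just past the threshold (adjusted p = 0.048, limma). That call held in 1 of the 12 fits that left out 1 array, without WT array 4 (adjusted p = 0.00333), and the difference stayed between -1.82 and -1.40 in all of them. The probe set used can match several transcripts. With the mean of the 2 probe sets of the gene the difference was -2.18 (adjusted p = 0.0049, limma). With only probe sets that have no cross-matching suffix it was -2.70 (adjusted p = 0.00573).

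Smo (chr6:29735497-29761366) encodes the membrane protein that passes the signal into the cell and is not known as a target of it. Its log2 values were 10.65, 10.52, 10.64 and 11.60 on Pap arrays, against 10.12, 10.34, 10.47 and 10.09 on InvEE arrays and 10.28, 9.75, 9.87 and 9.86 on WT arrays. Every Pap array lay above every InvEE and WT array, with Pap array 4 apart from the rest; 7.22% of all genes showed such a separation, with Pap higher, from WT and 14.5% from InvEE. Smo was 0.91 ± 0.23 (log2) higher in Pap than in WT arrays (adjusted p = 0.0274, limma), and 0.59 ± 0.23 higher in Pap than in InvEE arrays, which did not pass (adjusted p = 0.133, 95% interval 0.09 to 1.09). The call against WT was lost without WT array 2 (0.85, adjusted p = 0.0756), 3 (0.89, adjusted p = 0.0638) or 4 (0.885, adjusted p = 0.0553), with the Gapdh difference as a covariate (0.61, adjusted p = 0.145) and with the mean of the 3 probe sets of the gene (0.53, adjusted p = 0.141).

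The RefSeq promoter table held windows for 4 of the 5 genes, all but Gli1. The windows of the 3 of these genes that fell together in Pap against InvEE are shown, 250 bases before to 50 after the annotated start, in GRCm38.p6 and on the minus strand of the chromosome, read 5′ to 3′. Capitals mark GC boxes (GGGCGG on either strand), a motif found in 35.7% of all 32851 windows of this length and searched for after seeing the data.
Ptch1 (chr13:63565686-63565985): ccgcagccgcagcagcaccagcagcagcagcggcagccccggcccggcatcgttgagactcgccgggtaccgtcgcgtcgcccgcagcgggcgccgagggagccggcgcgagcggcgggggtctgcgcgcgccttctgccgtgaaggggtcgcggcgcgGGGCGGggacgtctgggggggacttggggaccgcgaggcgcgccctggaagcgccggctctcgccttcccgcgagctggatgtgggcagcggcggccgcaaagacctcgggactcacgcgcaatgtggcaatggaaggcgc
Hhip (chr8:80057959-80058258): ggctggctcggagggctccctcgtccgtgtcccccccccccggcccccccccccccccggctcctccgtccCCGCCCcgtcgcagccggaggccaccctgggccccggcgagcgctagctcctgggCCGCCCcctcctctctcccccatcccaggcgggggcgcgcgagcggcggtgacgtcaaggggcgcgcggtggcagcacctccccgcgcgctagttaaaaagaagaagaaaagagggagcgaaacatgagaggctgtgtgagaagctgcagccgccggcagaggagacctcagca
Gli2 (chr1:119053570-119053869): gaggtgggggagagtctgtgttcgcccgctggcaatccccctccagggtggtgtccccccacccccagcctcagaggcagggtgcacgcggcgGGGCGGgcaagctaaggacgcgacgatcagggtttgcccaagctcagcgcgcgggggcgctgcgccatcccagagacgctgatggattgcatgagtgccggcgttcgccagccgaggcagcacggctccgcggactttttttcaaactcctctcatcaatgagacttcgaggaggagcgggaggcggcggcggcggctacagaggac
Ptch1 and Gli2 had 1 GC box each, Hhip had 2 and the Smo window none. The GLI consensus GACCACCCA, on either strand, was in none of the 4 windows and in 0.253% of all windows, and with 1 mismatch allowed in none of the 4 and in 6.74% of all. The windows had a GC content of 76.3% (Ptch1), 73.7% (Hhip), 67.3% (Gli2) and 67.7% (Smo), against a median of 52.7% over all windows. An absent match says only that these letters are not in these windows. The Ptch1 and Gli2 windows lie inside the gene spans given above, which reach further upstream, and the bases there were not searched.

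In papilloma-associated against inflamed skin, limma called 4 of the 5 genes, all lower, where 3.04% of all genes were called lower and 6.71% in either direction. The groups did not overlap, with Pap lower, in the same 4 genes, against 6.66% of all genes. The other probe sets showed the same direction. Of all 13 probe sets, 9 were called lower in a fit across all probe sets, where 2.82% were called lower. All 4 probe sets of Hhip (-3.72 to -2.80) and all 3 of Ptch1 (-3.66 to -1.76) were among them, as were the 1 of Gli1 and 1 of the 2 of Gli2 (-2.70). The other Gli2 probe set, which stands for the gene, was not called in this fit (-1.66, adjusted p = 0.0549, limma). The 3 probe sets of Smo gave -0.41 to 0.59, and none was called.

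These calls moved with the level of the spike controls. With that level as a covariate, limma called 0 of the 5 genes in Pap against InvEE, and 0 had an unadjusted p under 0.05, where 1.18% of all genes were called: Gli1 stood at -0.99 (adjusted p = 0.378), Ptch1 at -0.80 (adjusted p = 0.689), Hhip at -2.11 (adjusted p = 0.427) and Gli2 at -0.37 (adjusted p = 0.835). Since the spike level itself differed between InvEE arrays and both other groups without overlap, its part and that of the groups cannot be told apart in this fit. At a threshold of 0.01 only Gli1 was called, where 2.18% of all genes were.

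**Figure D2:**
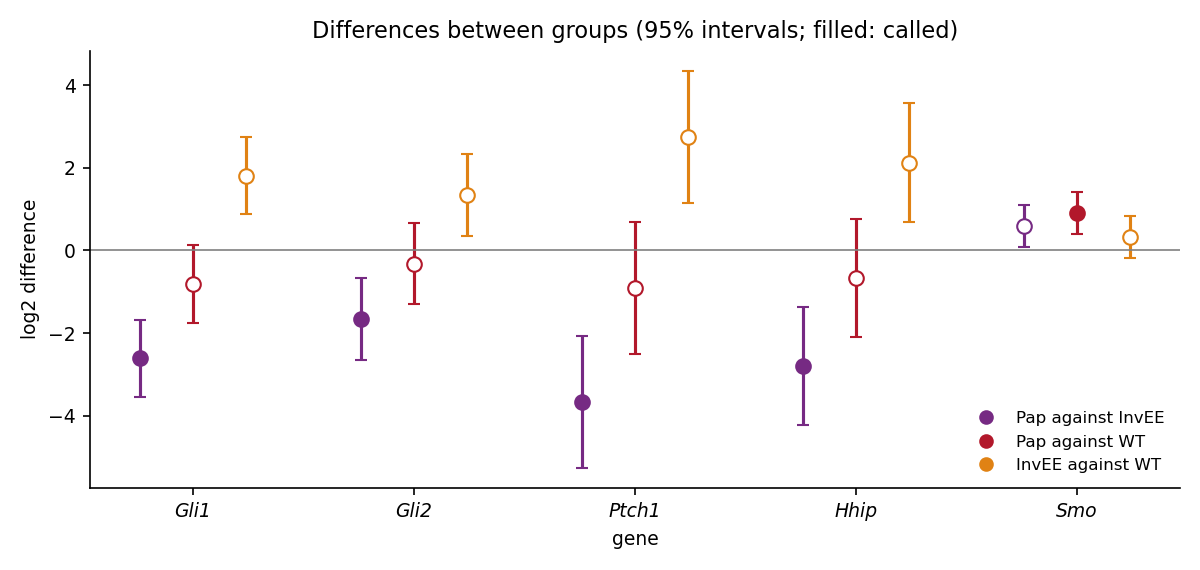
Log2 differences of the 5 genes in the 3 comparisons (y axis) with their 95% intervals from the limma fit (12 arrays); filled points passed an adjusted p of 0.05. The 4 purple points of Gli1, Gli2, Ptch1 and Hhip lie between -3.66 and -1.66, and Smo lies above 0 in every comparison.

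In inflamed against normal skin, limma called 0 of the 5 genes, against 0.533% of all genes, and 4 of the 5 had an unadjusted p under 0.05, against 2837 of 18193 genes. Ptch1 was 2.75 ± 0.74 (log2) higher in InvEE arrays (adjusted p = 0.118, 95% interval 1.15 to 4.35), Hhip 2.13 ± 0.66 (adjusted p = 0.165, interval 0.69 to 3.56), Gli1 1.81 ± 0.43 (adjusted p = 0.0922, interval 0.87 to 2.75) and Gli2 1.34 ± 0.45 (adjusted p = 0.196, interval 0.36 to 2.33). In these 4 genes every InvEE array lay above every WT array, a separation that 5.07% of all genes showed in this direction. Smo stood at 0.32 ± 0.23 (adjusted p = 0.51), and its groups overlapped.

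Single arrays and the spike level moved these differences. Without WT array 4 they were 2.09 in Ptch1, 1.79 in Hhip, 1.32 in Gli1 and 0.81 in Gli2, and without InvEE array 3 Hhip was 1.31 (adjusted p = 0.179, limma); none was called. With the spike level as a covariate they were 0.38 in Ptch1 (adjusted p = 0.855), 1.56 in Hhip (adjusted p = 0.561), 0.47 in Gli1 (adjusted p = 0.683) and 0.27 in Gli2 (adjusted p = 0.874). In that fit limma called 0 of 18193 genes in InvEE against WT, and 2170 genes, none of the 5 among them, had an unadjusted p under 0.05. With arrays weighted by their fit to the model, WT array 4 had a weight of 0.284, and Gli1 (1.45, adjusted p = 0.0148) and Ptch1 (2.03, adjusted p = 0.0386) were called higher, where 4.61% of all genes were called. The second brightest probe set of Ptch1 showed the least spread. It measured 7.25, 7.62, 8.23 and 7.55 on Pap arrays, against 9.81, 9.83, 10.18 and 10.004 on InvEE arrays and 8.12, 8.66, 8.85 and 8.32 on WT arrays. Over all probe sets it was called in each comparison: -2.29 ± 0.22 in Pap against InvEE (adjusted p = 0.00017, limma), 1.47 ± 0.22 in InvEE against WT (adjusted p = 0.0282) and -0.82 ± 0.22 in Pap against WT (adjusted p = 0.0441). In Pap against WT it and the brightest Smo probe set were the 2 of 13 called, where 7.65% of all probe sets were. It was the only 1 of the 13 probe sets called in InvEE against WT, where 0.169% of all probe sets were called higher, and that call was lost without InvEE array 1, 2 or 3 or WT array 1, 2 or 4.

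**Figure D3:**
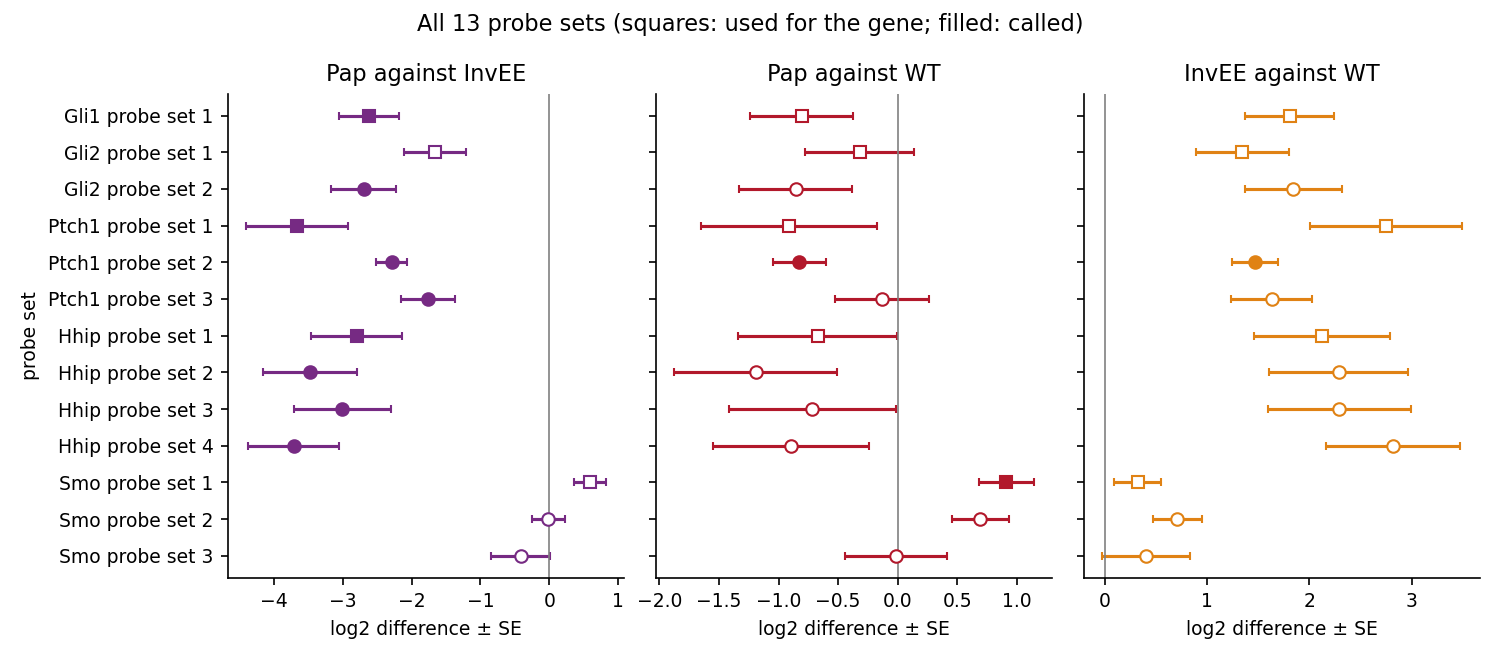
Log2 differences ± SE (x axis) of all 13 probe sets (y axis, numbered within a gene by brightness) in each comparison, from a limma fit across all probe sets; squares are the probe sets used for the gene and filled symbols passed an adjusted p of 0.05. In Pap against InvEE the 10 probe sets of Gli1, Gli2, Ptch1 and Hhip lie between -3.72 and -1.66.

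In papilloma-associated against normal skin, limma called 1 of the 5 genes, Smo, where 9.65% of all genes were called and 4.85% were called higher. Gli1 stood at -0.81 ± 0.43 (adjusted p = 0.304, 95% interval -1.745 to 0.13), Ptch1 at -0.91 ± 0.74 (adjusted p = 0.527, interval -2.52 to 0.69), Hhip at -0.67 ± 0.66 (adjusted p = 0.617, interval -2.11 to 0.76) and Gli2 at -0.32 ± 0.45 (adjusted p = 0.744, interval -1.30 to 0.66). Without WT array 4, Gli1 passed (-1.29, adjusted p = 0.0188), while Ptch1 (-1.57, adjusted p = 0.172), Hhip (-1.01, adjusted p = 0.411) and Gli2 (-0.85, adjusted p = 0.0877) did not. When Pap array 4, InvEE array 3 and WT array 4 were all left out, a choice made after seeing the data, Gli1 (-1.11, adjusted p = 0.0302), Gli2 (-1.01, adjusted p = 0.0483) and Hhip (-1.08, adjusted p = 0.027) were called lower and Smo was called higher, where 12.6% of all genes were called in either direction. The direction of these 3 genes against normal skin thus passed the test only with arrays left out. This comparison and that of inflamed with normal skin share the WT arrays.

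The 3 ligand genes showed no called difference. Shh averaged 7.28 ± 0.25 (SD, n = 4) on Pap, 6.93 ± 0.07 on InvEE and 7.14 ± 0.28 on WT arrays. Ihh averaged 6.15 ± 0.43, 5.76 ± 0.19 and 6.001 ± 0.33 in the same order, dim in each group, and Dhh, made by Schwann cells among others, 7.63 ± 0.33, 7.06 ± 0.04 and 7.62 ± 0.37. The group means of all 3 ligands were thus lowest on the InvEE arrays, on which Gli1, Gli2, Ptch1 and Hhip stood highest, with adjusted p between 0.112 and 0.985 (limma). The median difference of all genes had the same direction, at -0.09 in InvEE against WT and 0.12 in Pap against InvEE. Shh and Dhh had 2 probe sets each, of which only the brighter was described. Only Dhh had an unadjusted p under 0.05, in Pap against InvEE (0.57 ± 0.20) and in InvEE against WT (-0.56 ± 0.20). The sorted cells were fibroblasts, and ligand made by other cells of the skin was not measured.

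Of 10 measured genes for ligand processing, release and reception, Disp1, which releases the ligand from producing cells, was lower than in normal skin in both InvEE groups. It averaged 7.06 ± 0.18 (SD) on Pap, 7.33 ± 0.19 on InvEE and 8.58 ± 0.42 on WT arrays, with differences of -1.53 ± 0.20 (SE, adjusted p = 0.000624, limma) for Pap and -1.26 ± 0.20 (adjusted p = 0.0274) for InvEE against WT. The second of these was called in 7 of the 12 fits that left out 1 array, and not with the spike covariate (-1.55, adjusted p = 0.214). Scube3, a secreted protein that helps the ligand travel, fell by 2.97 ± 0.57 in Pap against InvEE (adjusted p = 0.00989, limma; -2.44, adjusted p = 0.284, with the spike covariate, and -2.27, adjusted p = 0.00235, without InvEE array 3), with 7.21 ± 0.51 on Pap, 10.18 ± 1.40 on InvEE and 7.78 ± 0.55 on WT arrays. Hhat, which attaches a fatty acid to the ligand, was 1.08 ± 0.31 higher in Pap than in WT arrays (adjusted p = 0.0486) but called in 2 of 12 such fits, and it was dim in WT arrays. The co-receptors Gas1, Boc and Cdon were not called in any comparison, with differences between -0.79 and 0.44.

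Inside the cell, Gli3, the main repressor form of the family, averaged 9.51 ± 0.18 (SD) on Pap, 9.17 ± 0.24 on InvEE and 8.50 ± 1.19 on WT arrays, with no called difference, and Sufu, which holds Gli proteins in the cytoplasm, averaged 7.53 ± 0.56, 7.41 ± 0.48 and 7.07 ± 0.19. Of 13 measured transduction genes, Prkar1a, a regulatory subunit of protein kinase A, was 1.08 ± 0.25 higher (adjusted p = 0.0185, limma) and Arrb2, a beta-arrestin, 1.41 ± 0.23 lower (adjusted p = 0.00243) in Pap than in WT arrays. A second Prkar1a probe set gave 0.30 (adjusted p = 0.516) and another, dim one 0.72 (adjusted p = 0.0384), and the Prkar1a call was lost with the Gapdh covariate (0.95, adjusted p = 0.0912) and with array weights (0.91, adjusted p = 0.0527). In Pap against InvEE, Stk36 was 0.65 ± 0.17 higher (adjusted p = 0.0362), dim in InvEE arrays and called in 3 of 12 fits without 1 array, and Arrb2 was 1.09 ± 0.23 lower (adjusted p = 0.0164; 0.0576 without InvEE array 2 and 0.29 with the spike covariate). The probe set of Arrb2 can match several transcripts, and its other probe set gave -0.37 and 0.04 in these comparisons, neither called. Of 11 measured cilium genes, Ift172, which carries cargo in the cilium, was 1.02 ± 0.23 lower in Pap than in WT arrays (adjusted p = 0.0151, limma), a call lost with the Gapdh covariate (-1.004, adjusted p = 0.0594), after arrays were shifted to a common mean of ribosomal protein genes (-0.80, adjusted p = 0.111) and in the 8 arrays alone (adjusted p = 0.0566). No cilium gene was called by limma in the other comparisons. In InvEE against WT 1 of the 11 had an unadjusted p under 0.05, against 2837 of all 18193 genes. In Pap against InvEE 3 of the 11 had, against 4816 of all 18193 genes.

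Genes known as Hedgehog targets in other tissues went in both directions. Of 14 measured, 2 were called lower (Bmp4 and Bcl2) and 2 higher (Foxf1 and Ccnd2) in Pap against InvEE. Of all genes 3.04% were called lower and 3.67% higher. Bmp4, a secreted signal of the BMP family, averaged 8.13 ± 0.25 (SD) on Pap, 11.37 ± 0.24 on InvEE and 11.09 ± 0.49 on WT arrays, and fell by 3.24 ± 0.24 (SE) against InvEE (adjusted p = 1.58e-05, limma). Bcl2, an inhibitor of cell death, averaged 9.03 ± 0.17, 11.87 ± 0.31 and 10.75 ± 0.51 in the same order, and fell by 2.84 ± 0.25 against InvEE (adjusted p = 5.51e-05). Both genes stayed called against InvEE in all 14 alternative settings, the spike covariate among them. The highest adjusted p there was 0.00904 in Bmp4 and 0.0242 in Bcl2 (limma). Foxf1, a transcription factor of mesenchyme, averaged 8.22 ± 0.75, 6.33 ± 0.26 and 6.43 ± 0.25, and rose by 1.88 ± 0.31 against InvEE (adjusted p = 0.00418; 2.24, adjusted p = 0.0832, with the spike covariate). Ccnd2, a D-type cyclin, rose by 1.62 ± 0.32 (adjusted p = 0.0112), and 0.88 (adjusted p = 0.438) with the spike covariate. In Pap against WT 2 of the 14 were called lower, Bmp4 (-2.96, adjusted p = 1.73e-05, limma) and Bcl2 (-1.72, adjusted p = 0.00103). The other Bcl2 probe sets gave -2.08 to -0.13 there, not all called. Foxf1 was the 1 called higher (1.78, adjusted p = 0.0038). Of all genes 4.8% were called lower and 4.85% higher.

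Over all 50 measured of 54 other Hedgehog genes, 3 were called higher and 4 lower in Pap against InvEE, with a median difference of -0.07, against 0.12 over all genes, of which 3.67% were called higher and 3.04% lower. In Pap against WT 3 were called higher and 5 lower (median -0.05, against 0.04; 4.85% and 4.8% of all genes), and in InvEE against WT 0 were called higher and 1 lower (median -0.06, against -0.09; 0.258% and 0.275% of all genes). The other 4 were not analysed here.

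**Figure D4:**
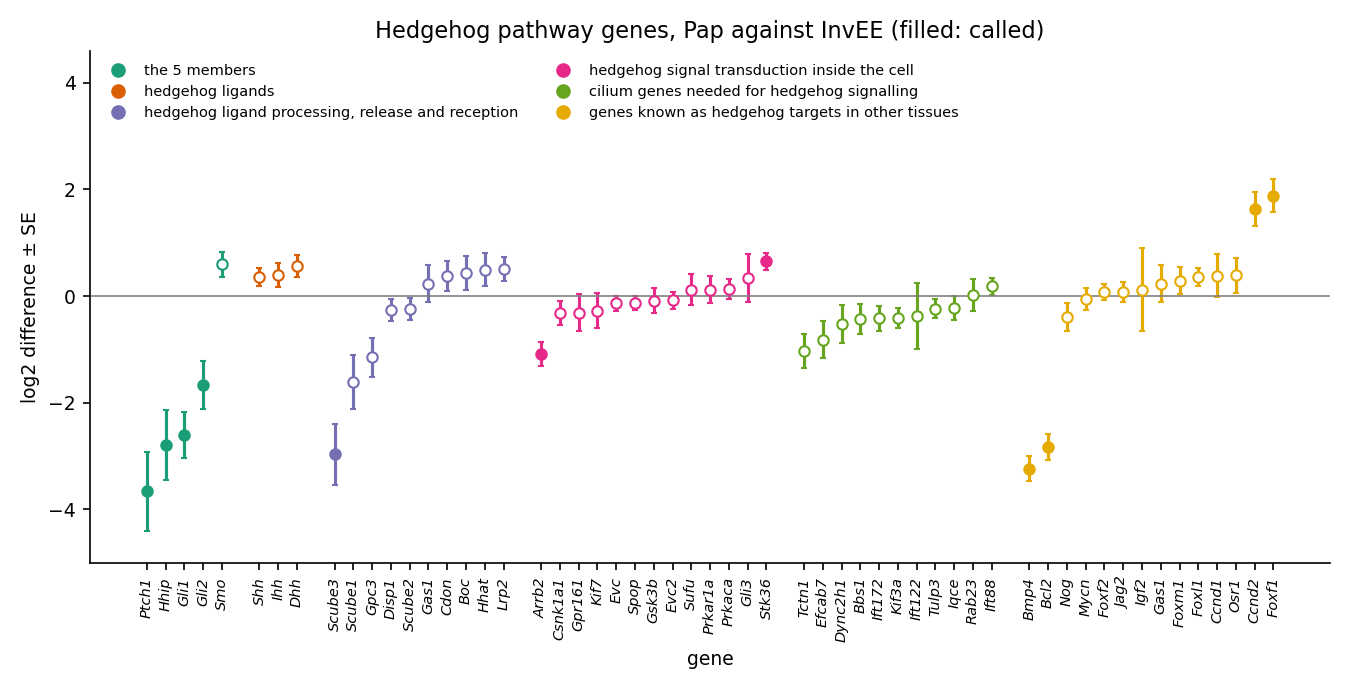
Log2 differences ± SE in Pap against InvEE (y axis) of the 5 genes and of the other Hedgehog genes, grouped by role (x axis; Gas1 stands in 2 groups as its own point in each); filled points passed an adjusted p of 0.05 over all genes. Most genes of the pathway lie within 1 of 0, while Gli1, Gli2, Ptch1, Hhip, Scube3, Bmp4 and Bcl2 lie below -1.5 and were called.

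The genes most like each of the 5 were found by the root mean square difference (log2) of their 12 values, each gene centred on its own mean. For Gli1 they were Hey1 (0.39), a Notch target and papilla marker, Snhg14 (0.45) and Spock1 (0.49). For Ptch1 they were Cxcr4 (0.62), a chemokine receptor, Rspo3 (0.72), a Wnt agonist, and Hey1 (0.73). For Hhip they were Alx4 (0.28), a transcription factor of mesenchyme, Scube3 (0.32) and Rspo3 (0.49). For Gli2 they were St6gal2 (0.36), Socs3 (0.39) and Etl4 (0.40), and for Smo they were Robo3 (0.17), Cttn (0.18) and Dcbld1 (0.18). Hey1, Rspo3 and Alx4 were also on the list of dermal papilla and sheath markers below. Among the 5 genes, Gli1 and Gli2 were nearest to each other (0.60), and Smo lay further from its nearest (1.10) than the other 4 did. Outside the 5, 10 genes lay nearer to Gli1 than Gli2 did, and 72 nearer to Gli2 than Gli1 did. Gli1 was also the nearest of the 5 to Ptch1 and Hhip, with 3 and 47 other genes nearer.

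Most markers of the follicle mesenchyme were also lower in Pap than in InvEE arrays. Of 14 measured markers of the dermal papilla and dermal sheath, 9 were called lower and none higher in Pap against InvEE (median -2.83, against 0.12 over all genes, of which 3.04% were called lower). None was called in InvEE against WT (median 2.06, against -0.09, with 0.533% of all genes called), and 2 were called higher and 3 lower in Pap against WT (median -0.70, against 0.04, with 4.85% and 4.8% called). The 5 not called in Pap against InvEE were Alpl (-1.503), Tbx18 (-0.40), Prdm1 (0.22), Itga8 (0.59) and Crabp1 (0.70). The mean log2 value of all 14 markers lay between 7.16 and 8.20 on Pap arrays, 9.46 and 10.55 on InvEE arrays and 6.53 and 8.49 on WT arrays, where the lowest was array 4 and the other WT arrays lay at 8.44 or above. Lepr, a leptin receptor, averaged 6.61 on Pap, 11.20 on InvEE and 9.65 on WT arrays, and Sox2, a transcription factor of the dermal papilla, 3.68, 6.68 and 5.01 in the same order, dim on Pap and WT arrays. Crabp1, a retinoic acid binding protein, and Itga8, an integrin subunit, were called higher in Pap against WT, with differences of 1.66 (adjusted p = 0.0119, limma) and 3.02 (adjusted p = 0.00777). InvEE array 3, the highest in Hhip, was also the highest in the marker mean and in Scube3, and among InvEE arrays in the Gapdh excess (3.29). The part of these markers in the Hedgehog differences was not tested.

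Keratinocyte and follicle epithelium markers had means of 6.71 to 7.84 on Pap, 7.61 to 8.70 on InvEE and 6.42 to 6.83 on WT arrays. Of 15, 1 was called lower in Pap against InvEE (Krt15; 3.04% of all genes), 2 were called higher in InvEE against WT (Krt15 and Perp; 0.258% of all genes) and 2 higher in Pap against WT (Krt14 and Dsp; 4.85% of all genes). Their part in the Hedgehog differences was not tested. Of 9 pericyte and smooth muscle markers, means were 7.84 to 8.28 on Pap, 8.38 to 8.61 on InvEE and 8.51 to 8.88 on WT arrays, with 4 called lower in Pap against InvEE (3.04% of all genes), 1 higher and 3 lower in Pap against WT (4.85% and 4.8%) and 1 higher and 2 lower in InvEE against WT (0.258% and 0.275%). The higher one was Acta2, a smooth muscle actin, at 4.32 in Pap against WT (adjusted p = 0.00036, limma) and 2.99 in InvEE against WT (adjusted p = 0.0368). The endothelial (5.68 to 6.59 on Pap, 5.65 to 6.44 on InvEE and 5.51 to 5.96 on WT arrays), macrophage (6.65 to 7.16, 6.42 to 6.95 and 6.89 to 7.33) and Schwann cell (6.47 to 7.06, 6.79 to 7.17 and 6.84 to 8.04) means overlapped between Pap and InvEE arrays. Of these 16 markers 6 were dim in every group, among them Adgre1 and Ptprc. The macrophage marker Csf1r was bright, at 9.62 on Pap, 10.49 on InvEE and 11.77 on WT arrays. It was called lower in Pap against WT (-2.14, adjusted p = 0.0102, limma), where 4.8% of all genes were called lower. No other marker of these 3 lists was called in any comparison. Of 7 measured proliferation genes none was called in any comparison by limma, where 0.533% to 9.65% of all genes were called. Of the 7, 4 had an unadjusted p under 0.05 in InvEE against WT, against 2837 of 18193 genes. In Pap against WT 1 had, against 4075 of all genes, and in Pap against InvEE 0, against 4816. The medians of the 7 genes were -0.34 in Pap against InvEE, 0.32 in Pap against WT and 0.51 in InvEE against WT.

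**Figure D5:**
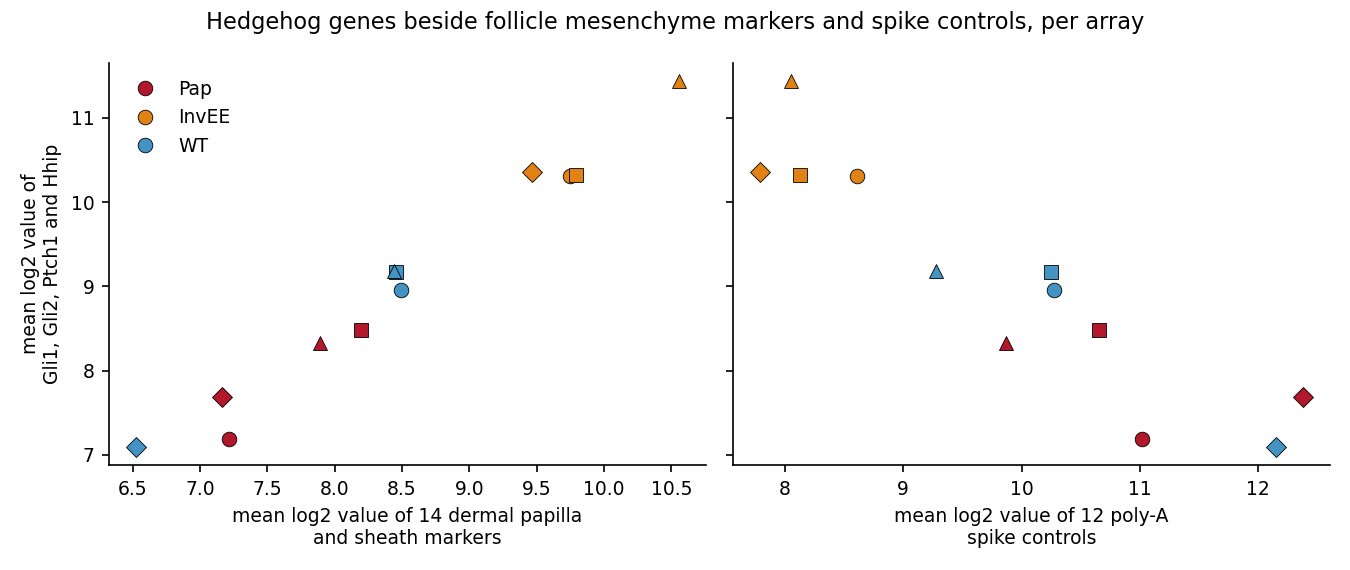
Mean log2 value of Gli1, Gli2, Ptch1 and Hhip (y axis) on each array beside the mean of 14 dermal papilla and sheath markers (left, x axis) and of 12 poly-A spike controls (right, x axis); shapes give the replicate number. InvEE arrays are highest in the 4 genes (10.31 to 11.44, against 7.19 to 8.48 on Pap and 7.09 to 9.19 on WT arrays), highest in the markers and lowest in the spikes, and WT array 4 is lowest in the 4 genes and in the markers.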

How the data were processed

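RNA of sorted cells was amplified with a NuGEN Pico kit, biotin labelled and hybridised to Affymetrix arrays, per the labels' protocols. The deposited values are on a log2 scale, 1 per probe set and array, between 2.08 and 14.96; limma is named, with no version, per the submitters' processing notes. How background was corrected and probes were summarized is not stated there or in the labels, so the sizes of differences of dim genes depend on them. Quartiles of the arrays spanned up to 0.284, and values were quantile normalized (a rule asked for it above 0.1). A linear model of 3 group means over all 12 arrays was fitted with limma 3.58.1 in R 4.3.3 (lmFit, eBayes), two-sided, with Benjamini-Hochberg adjustment over all 18193 genes, or all 45037 probe sets; called means an adjusted p under 0.05. The fit was tested on simulated data. Of 45101 probe sets, 64 were controls, 34945 had 1 symbol, 932 several and 9160 none. Levels of different genes were not compared. No pair of arrays shared over 0.253% of identical values. The number of arrays limits the precision.

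The genes, lists, alternatives and naming rule (all 5 genes, 9 core pathway genes, called genes of the Hedgehog lists, and the 3 genes most like each of the 5) were chosen with earlier results of these data known. The alternatives were other normalizations, probe set rules, a filter on dim genes, an intensity trend, array weights, 8 arrays only, the replicate number as a block, the spike or Gapdh level as a covariate, a threshold of 0.01, and leaving out each array.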

Additional observations from a re-analysis of the deposited data

Results flagged for a closer look

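In Hhip, InvEE array 3 had a log2 value of 12.16, against 9.18 on the nearest InvEE array; the gap was 0.839 of the range of that group, above the 95% critical value of Dixon's test for 4 samples. In Smo, Pap array 4 had 11.60, against 10.65 on the nearest Pap array, with a gap of 0.876 of the range. These were 2 of 15 groups examined, where chance gives about 1 in 20.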

How the results depend on the processing

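No difference of the 5 genes changed sign under any alternative run. For Pap against InvEE, 4 genes were called, 1 at a threshold of 0.01, 0 with the spike covariate and 2 to 4 when 1 array was left out (2 without Pap array 1 or InvEE array 1). Of all genes 6.71%, 2.18%, 1.18% and 3.18% to 8.69% were called in the same order. Of the probe sets 9 were called, and 6 to 10 without 1 array. For InvEE against WT, 0 genes were called, 2 with array weights and 0 without any 1 array. Of all genes 0.533%, 4.61% and 0% to 1.37% were called in the same order. With the mean of a gene's probe sets 1 was called (Ptch1, 1.95, adjusted p = 0.0238, limma), where 1.25% of all genes were called. Of the probe sets 1 was called, 0 after the ribosomal shift, 0 without the 3 arrays together and 0 to 2 without 1 array. For Pap against WT, 1 gene was called, 0 with the mean of probe sets, 0 in 8 arrays, 0 with the Gapdh covariate, 0 at 0.01, 4 without the 3 arrays together and 0 to 1 without 1 array. Of all genes 9.65%, 11.2%, 6.01%, 6.26%, 4.16%, 12.6% and 6.92% to 9.85% were called in the same order. Of the probe sets 2 were called, 1 on deposited values, 1 after the median shift, 4 without the 3 arrays together and 0 to 2 without 1 array. The shift by 46 ribosomal protein genes moved the median of all genes in Pap against InvEE to 0.52, against 0.12. Smo was then called higher (0.99, adjusted p = 0.0409, limma), where 20.4% of all genes were called, against 6.71% without the shift. Gli2 was not called in Pap against InvEE after the median shift (-1.60, adjusted p = 0.0511) or with the Gapdh covariate (-1.61, adjusted p = 0.106), nor Hhip in 8 arrays (-2.80, adjusted p = 0.0552). Arrb2 in Pap against InvEE turned to 0.044 with probe sets that have no cross-matching suffix. The causes were not tested, beyond what each alternative leaves out.

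The groups share replicate numbers. Deviations of same-numbered arrays from their group means correlated between -0.0943 and 0.177, above 0.1 in 2 of 12 pairs. Of 12 arrays, 5 correlated best with their own number. Such correlations cannot tell whether same-numbered samples shared an animal or a processing step, and the labels do not say. With the replicate number as a block, 3 of the 5 genes, against 4 without the block, were called in Pap against InvEE (Gli2 -1.66, adjusted p = 0.0792), 0 genes and 1 probe set in Pap against WT (Smo 0.91, adjusted p = 0.0566) and 0 genes in InvEE against WT. Of all genes 5.71%, 8.53% and 0.313% were called in these comparisons with the block.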
